A study of Mus musculus with 28 samples.

Results

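The hippocampus of fosB-null mice of 10 weeks (genotype G/G) was compared with that of wild type mice of the same age, both after saline. Each group had 3 arrays, labelled as biological replicates, so 6 of the 28 arrays of the series carried the comparison. They were chosen by title, genotype and treatment label. All mice were labelled female and of strain C57BL/6J, brains were taken under pentobarbital after perfusion with saline, and RNA of the isolated hippocampus was read on Affymetrix Mouse Gene 1.0 ST arrays. The G/G mice lack both FosB and deltaFosB, and the labels name no cell type to which the loss is confined. Saline is the vehicle control for kainate (KA), an agonist of glutamate receptors that evokes seizures. No source used here states how long after the injection the tissue was taken. The age label gives 10 weeks, whereas a protocol text gives 14 months for all mice of the series, and the age label was used. Values set beside the comparison come from fosB-null and wild type mice of 10 weeks after KA (3 arrays each), from saline-treated fosB d/d mice, a mutant that makes deltaFosB but no full-length FosB (3 arrays; grouped by title and treatment, since their source name gives kainate instead), and from aged mice: wild type (3, of 68.7 to 70.3 weeks), fosB-null with epilepsy (3, of 69 to 71 weeks) and fosB-null without (2, of 71 weeks).

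FosB is a transcription factor of the Fos family. It has a leucine zipper with which it pairs with Jun proteins, and the pair, called AP-1, binds short DNA elements in promoters and enhancers. Splicing of the same transcript also gives deltaFosB, a shortened form that is degraded slowly and builds up in neurons with repeated activity. Both forms are induced in the hippocampus by seizures, stress and other strong stimulation, and in mice under no such stimulus their level is low.

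Markers of hippocampal cells differed in signal. Prox1, the homeobox factor of dentate granule cells, had a signal at percentile 91.4 of the genes tested, and Wfs1 and Mpped1 of CA1 were at percentiles 93.8 and 96.9. The other hippocampal markers checked lay between percentiles 35.1 (Tdo2 of granule cells) and 84.5 (Fibcd1 of CA1), with Coch and Iyd of CA3 at 45.4 and 45.9. Drd1, Drd2 and Rgs9, checked as markers of striatum, were at percentiles 52.5, 56.9 and 60.1. Other tissue was present to a degree that differed between arrays. The log2 of the summed signal of 16 choroid plexus genes ranged from 13.33 to 15.25 in wild type and from 12.99 to 15.22 in fosB-null arrays. Kcnj13, a potassium channel of that tissue, read 10.13, 9.16 and 12.31 in wild type arrays and 8.35, 12.33 and 12.35 in fosB-null arrays, so 1 wild type and 2 fosB-null arrays were high. Meningeal genes spanned 14.22 to 14.60 and 14.04 to 14.51 on the same scale. The oligodendrocyte list spanned 15.14 to 15.33 and 15.19 to 15.28. Of the markers checked, Lum of meninges had the lowest signal, at percentile 25.2, and Alas2 of blood was at 29.7, so some markers were dim. The part of other tissue in the results was not tested.

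1 array stood apart. All mice of 10 weeks are labelled female, yet the 6 arrays carried Y-linked signal, with Kdm5d at 9.24 to 9.79 against 5.92 to 6.55 in the aged mice, while Xist was at 9.63 in wild type replicate 1 and at 6.07 to 6.34 in the other 5 arrays (12.04 to 12.93 in aged mice). These genes do not bear on the genotype of that library. In the main fit the number of genes passing, over all genes and near Fosb, is given with and without it. With the array set as a block, only the number over all genes is. The counts of the gene lists and promoters include that library. Aged and young arrays thus differed in sex-linked signal as well as in age, which holds for every aged value given here. Arrays also fell into sets by overall level: replicate 1 of each group had a lower median deposited log2 signal (8.08 and 8.11) than replicates 2 and 3 (8.34 and 8.40 in wild type, 8.36 and 8.38 in fosB-null). Both groups have 1 array in the first set and 2 in the second, so set and genotype are balanced here. Correlations over genes, which are not independent replicates, were 0.990 to 0.994 within wild type, 0.990 to 0.998 within fosB-null and 0.990 to 0.994 between the groups.

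The probe set of Fosb itself read 8.72, 8.79 and 8.86 in wild type arrays and 8.57, 8.46 and 8.54 in fosB-null arrays. All 3 fosB-null arrays lay below all 3 wild type arrays, by 0.26 on average on the log2 scale (SE 0.16), and the difference did not pass (limma, adjusted p = 0.682). In the fosB d/d arrays, compared with the same wild type arrays, the probe set was at 8.98, 9.43 and 9.30. The lower reading in fosB-null recurred after KA (-0.34, adjusted p = 0.371) and in aged mice (-0.81 with epilepsy and -0.88 without), none of which passed. Fosb has 1 probe set in the table and no source used here states which part of the transcript it covers, so this reading does not check the genotype.

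Few genes differed between fosB-null and wild type hippocampus after saline, and by small amounts. Of 19938 genes, 16 passed at an adjusted p under 0.05 (0.0802%), 6 higher in fosB-null (0.0301%) and 10 lower (0.0502%). In all 16 the 3 arrays of one genotype lay beyond the 3 of the other; over all genes 13.4% were separated in that way, 6.68% with fosB-null above and 6.75% with it below. At an unadjusted p under 0.05 there were 1752 genes (8.79%), 4.32% of all genes higher and 4.46% lower. The median gene differed by -0.0012 on the log2 scale, 5 in 100 genes lay below -0.24 and as many above 0.24, and 6 genes differed by more than 1. When the array set was included as a block, 319 genes passed (1.6%), 143 higher (0.717%) and 176 lower (0.883%), among them the 16. All 319 differed in the same direction within both sets, and 268 were separated between the groups. The same arrays chose the 319, so neither count is a further test. At an unadjusted p under 0.05 the block gave 3629 genes (18.2%). The number of arrays limits the precision of all these values.

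The count rested on single arrays. It was 10 without wild type replicate 1, 1 without replicate 2 and 5 without replicate 3 of wild type, and 21, 1 and 2 without replicates 1, 2 and 3 of fosB-null; with the values as deposited 1 gene passed, which was lower. Without wild type replicate 1, Sun3 (adjusted p = 0.0055), Ercc2 (0.0112) and H2ac8 (0.0241) were those of the 16 that still passed in limma, and the other 13 had adjusted p of 0.0553 to 0.0818 with the same sign. With the array set as a block, 355 genes passed without that array, 187 of them among the 319.

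**Figure D1:**
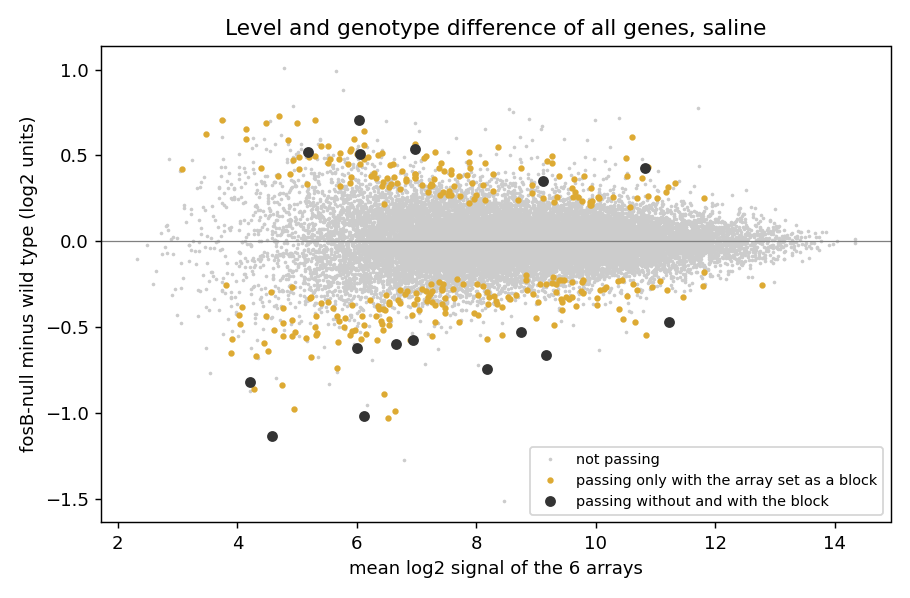
Each point is 1 of 19938 genes, with the mean log2 signal of the 6 arrays on the x axis and the fosB-null minus wild type difference in log2 units on the y axis; dark points are the 16 genes passing in both fits and yellow points the others passing with the array set as a block. Most genes lie within 0.24 of 0, and the passing genes crowd towards the low signals at the left.

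Many of the passing genes had low signals. The 6646 genes of lowest signal held 10 of the 16 and 193 of the 319 (2.90% of those genes), against 67 in the middle 6646 (1.01%) and 59 in the brightest 6646 (0.888%). Receptors of the nose were frequent among them: with the array set as a block, 44 of 1027 odorant receptor genes (4.28%) and 9 of 167 vomeronasal receptor genes (5.39%) passed. Of the genes that are neither these nor predicted loci, small RNAs or immunoglobulin segments, 237 of 17139 passed (1.38%). The odorant receptors have a median signal at percentile 7.92 and the vomeronasal ones at 3.88. In hippocampus as a bulk tissue, fewer cells of a type and less RNA per cell cannot be told apart in any value given here.

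Genes that lie near Fosb on chromosome 7 stood out among the 16. Within 10 Mb of Fosb on either side, 6 of 339 genes passed (1.77%, against 0.0802% of all genes): Kptn and Pnmal2 higher, Ap2s1, Pglyrp1, Ercc2 and Vmn1r180 lower. With the array set as a block it was 18 of 339 (5.31%, against 1.6%), 6 higher and 12 lower. Within 2 Mb, 2 of 76 passed, and within 30 Mb 6 of 743. The median difference of the 339 genes was -0.0141, beside -0.0012 over all genes. Single arrays decided this count too: of the 339, 2 passed without wild type replicate 1, 0 without its replicate 2 and 1 without its replicate 3, and 5, 0 and 1 without replicates 1, 2 and 3 of fosB-null, in the same limma fit; 1 passed with the values as deposited. Gene order is that of the RefSeq gene table of GRCm38.p6. The strain label is C57BL/6J for all groups, and whether the DNA around the mutated gene differs between the groups was not tested.

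**Figure D2:**
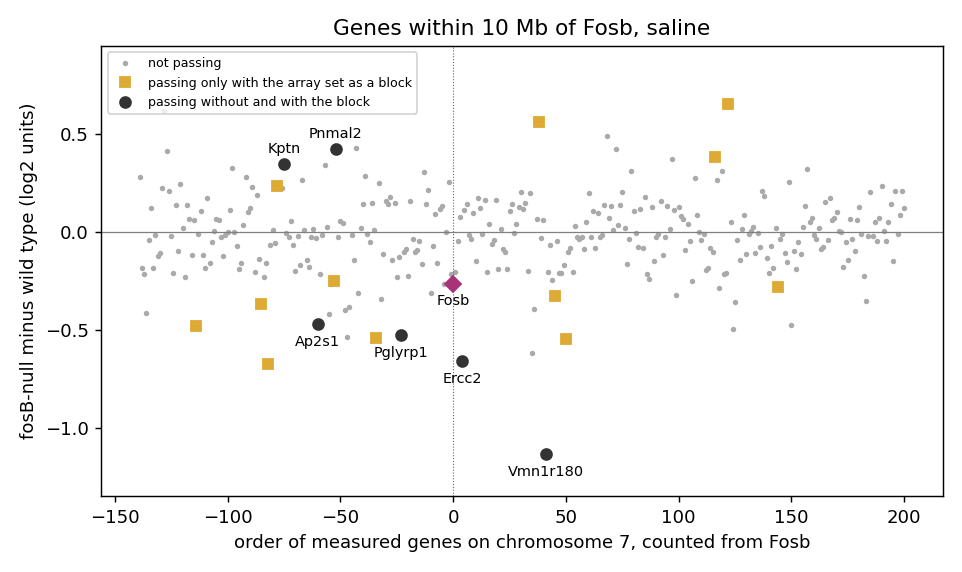
The x axis orders the measured genes within 10 Mb of Fosb by position on chromosome 7, counted from Fosb at 0, and the y axis gives the fosB-null minus wild type difference in log2 units; dark points passed without and with the array set as a block, yellow squares only with it. The 6 passing genes lie on both sides of Fosb, from 75 genes before it (Kptn) to 41 after it (Vmn1r180), among many genes close to 0.

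Ercc2, the fourth gene after Fosb, encodes the XPD helicase of the TFIIH complex, which opens DNA for transcription and for nucleotide excision repair. Its signals were 9.44, 9.51 and 9.51 in wild type and 8.74, 8.80 and 8.95 in fosB-null. It fell by 0.66 on the log2 scale (SE 0.08, 1.58-fold lower, adjusted p = 0.0071), and the 2 groups did not overlap. The lower level recurred in fosB-null after KA (-0.80, adjusted p = 0.00021), in aged fosB-null without epilepsy (-0.55, adjusted p = 0.0248) and with a similar size in aged fosB-null with epilepsy (-0.52, adjusted p = 0.101). These comparisons share no array with the saline one, though the KA one takes its SE from the same fit. In fosB d/d mice after saline, set against the same wild type arrays, Ercc2 read 8.86, 8.84 and 8.95 (-0.61, adjusted p = 0.0201).

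Pglyrp1, a secreted protein that recognises bacterial cell wall, lies 23 genes before Fosb. It read 9.08, 9.0 and 8.96 in wild type and 8.58, 8.55 and 8.32 in fosB-null, a fall by 0.53 (SE 0.08, adjusted p = 0.0226). After KA the difference was -0.67 (adjusted p = 0.00067) and in aged mice -0.64 and -0.82 (adjusted p = 0.460 and 0.0526). Ercc2 and Pglyrp1 were also the 2 genes (0.01% of all) that passed for fosB d/d against wild type after saline, where Pglyrp1 differed by -0.60 against the shared controls.

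Ap2s1, the small subunit of the AP-2 adaptor of clathrin-mediated endocytosis, is brightly expressed (percentile 91.8). It was at 11.57, 11.42 and 11.39 in wild type and at 11.10, 10.88 and 10.97 in fosB-null, a fall by 0.47 (SE 0.08, adjusted p = 0.0289). The difference was -0.21 after KA (adjusted p = 0.247), and -0.11 and -0.45 in aged mice with and without epilepsy, with no call. Calm3, in the same region, a gene of the calcium sensor calmodulin, was at 12.92, 12.87 and 12.94 against 12.77, 12.55 and 12.66, and passed with the array set as a block (-0.25, adjusted p = 0.0364; 0.206 without).

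Kptn and Pnmal2 were the genes of the region that rose. Kptn encodes kaptin, an actin-associated protein of the KICSTOR complex that restrains the growth regulator mTORC1. Its signals were 8.94, 9.0 and 8.87 in wild type and 9.24, 9.32 and 9.30 in fosB-null, higher by 0.35 (SE 0.06, adjusted p = 0.0289), and it was higher by 0.33 after KA (adjusted p = 0.0141) and by 0.48 and 0.53 in aged mice (adjusted p = 0.312 and 0.0528). Pnmal2, of the paraneoplastic Ma antigen family, went from 10.65, 10.66 and 10.50 to 11.06, 11.01 and 11.02, higher by 0.42 (SE 0.08, adjusted p = 0.0498), and was higher by 0.54 after KA (adjusted p = 0.0029). In fosB d/d mice after saline the same 2 genes differed by 0.22 and 0.32 from the shared controls and did not pass.

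Vmn1r180, a vomeronasal receptor gene 41 genes after Fosb, differed from these. It was at 5.08, 5.18 and 5.16 in wild type and at 4.37, 3.96 and 3.68 in fosB-null (-1.14, SE 0.18, adjusted p = 0.0246), a signal at percentile 1.49, and it is the gene that passed with the values as deposited. After KA the difference was 0.73 in the other direction (adjusted p = 0.066), and in aged mice -0.03 and -0.06.

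Of the genes closest to Fosb, Ercc2 alone passed. Ercc1, the first gene after Fosb and a partner in nucleotide excision repair, was at 9.87, 9.68 and 9.74 against 9.74, 9.53 and 9.41 (-0.20, adjusted p = 0.519). Rtn2, a reticulon and the gene just before, differed by -0.22 (adjusted p = 0.698). Opa3, a mitochondrial protein 4 genes before, differed by -0.26 (adjusted p = 0.347) after saline and passed after KA (-0.45, adjusted p = 0.0206). Ppp1r13l (0.08), Mark4 (-0.04) and Klc3 (0.11) were close to 0. Further away, the zinc finger genes Zfp180 (-0.33, adjusted p = 0.0279) and Zfp109 (-0.55, adjusted p = 0.0307) passed with the array set as a block only; they are named after their values were seen, as are Calm3 and the receptor genes.

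Among the genes elsewhere in the genome, 10 passed. H2ac4 and H2ac8, which encode the core histone H2A, fell most. H2ac4 was at 6.87, 6.72 and 6.32 in wild type and at 5.48, 5.74 and 5.64 in fosB-null (-1.02, SE 0.15, adjusted p = 0.0208), and H2ac8 went from 4.50, 4.74 and 4.64 to 3.90, 3.62 and 3.90 (-0.82, SE 0.12, adjusted p = 0.02). Histone H2A genes are near-identical copies, and their probe sets may read each other's transcripts. After KA the differences were -0.07 and -0.23, and neither passed.

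An enzyme of metabolism and one of DNA repair also fell. Acat3, a close relative of the cytosolic acetyl-CoA acetyltransferase Acat2, whose transcripts its probes may also read, was at 8.51, 8.69 and 8.44 against 8.07, 7.67 and 7.68, a fall by 0.74 (SE 0.12, adjusted p = 0.0318). It was the single gene away from Fosb that also passed after KA (-0.62, adjusted p = 0.0305). Neil2, a DNA glycosylase that starts base excision repair, fell by 0.57 (7.26, 7.26 and 7.18 against 6.78, 6.74 and 6.46; SE 0.09, adjusted p = 0.0266) and differed by -0.08 after KA.

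Sun3, a SUN domain protein of the nuclear envelope known from sperm cells, had the smallest adjusted p of all genes. It was tightly grouped at 6.30, 6.33 and 6.32 in wild type and at 5.72, 5.77 and 5.59 in fosB-null (-0.62, SE 0.06, adjusted p = 0.0011). Rai2, a gene first found through its induction by retinoic acid, fell from 6.95, 7.09 and 6.84 to 6.48, 6.30 and 6.30 (-0.60, adjusted p = 0.0496). After KA the differences were -0.08 and 0.23.

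The genes away from Fosb that rose were all of low signal. Cct8l1, a relative of a chaperonin subunit, was at 6.66, 6.64 and 6.79 against 7.23, 7.26 and 7.22 (0.54, SE 0.08, adjusted p = 0.02). Mcpt1, a protease of mast cells, was at 4.98, 4.88 and 4.90 against 5.45, 5.50 and 5.38 (0.52, adjusted p = 0.0269), and Tppp2, of a family that promotes tubulin assembly, at 5.84, 5.65 and 5.88 against 6.35, 6.28 and 6.27 (0.51, adjusted p = 0.0483). The fourth was the vomeronasal receptor gene Vmn1r212 (0.71, adjusted p = 0.02). Of the 10 genes away from Fosb, 9 were among the 6646 of lowest signal, against 1 of the 6 near it.

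**Figure D3:**
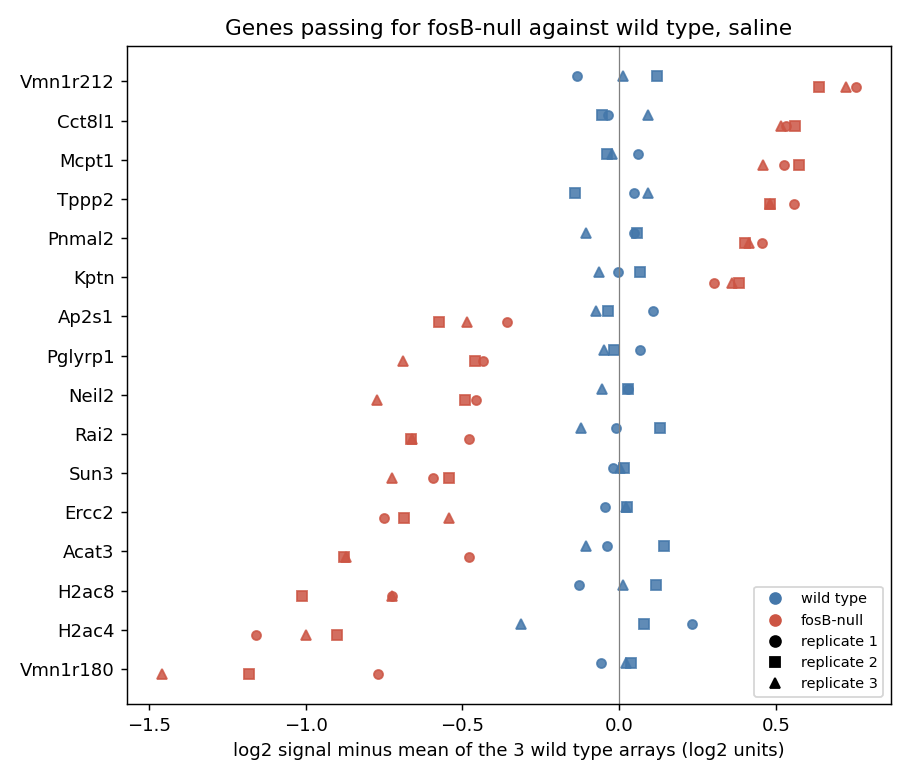
Rows are the 16 passing genes and points the single arrays, drawn as log2 signal minus the mean of the 3 wild type arrays, with wild type in blue, fosB-null in red and the replicate number as the marker shape. In every row the 3 red points lie beyond the 3 blue ones, to the left in 10 rows and to the right in 6.

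Beyond the 16, further genes passed with the array set as a block, and those of smallest p were named. Orm3, an acute phase glycoprotein (0.60, adjusted p = 0.0065), Tex28 (0.50, 0.0024), Cyp2c70, a bile acid enzyme of liver (0.48, 0.0053), Svs6, of seminal vesicle (0.47, 0.0065), Slc2a7, a sugar transporter (0.41, 0.0082) and Tmem273 (0.50, 0.0090) were higher at low signal. Ccdc3, a secreted protein at mid level, read 8.63, 9.05 and 9.16 against 9.06, 9.63 and 9.55 (0.47, adjusted p = 0.0085). In it the groups overlap, while within each array set the fosB-null arrays lie above. Lower were Igfbp6, a binding protein of insulin-like growth factor (8.63, 8.32 and 8.45 against 8.04, 7.71 and 7.94; -0.57, adjusted p = 0.0043), S100a5, a calcium-binding protein (-0.55, adjusted p = 0.0020) and Abca14, a transporter (-0.40, adjusted p = 0.0044). Without the block their adjusted p lay between 0.0521 and 0.543.

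The differences were then set beside those of other fosB-null mice, in comparisons that share no array with this one. The KA comparison comes from the same fit, however, so each gene has the same SE in it as after saline. After KA, 171 genes passed for fosB-null against wild type (0.858%). Of the 6 passing genes near Fosb, 5 had the same sign after KA and 4 passed there (Ercc2, Pglyrp1, Pnmal2 and Kptn). Of the 10 elsewhere, 5 had the same sign and 1 passed, Acat3; over all genes the sign was the same in 44.6%. The 319 genes that passed with the array set as a block had the same sign after KA in 116 cases, and 14 of them passed there. The KA arrays of the 2 genotypes are not balanced over the array sets: with the set as a block, 168 of the 319 (52.7%) had the same sign, beside 48.1% of all genes. Of the 16, it was 5 of the 6 near Fosb and 7 of the 10 elsewhere with the block. In that fit 393 genes (1.97%) passed after KA, and, of the 16, Ercc2 (-0.60, adjusted p = 0.00082), Pglyrp1 (-0.67, 0.00329), Pnmal2 (0.63, 0.00234), Kptn (0.31, 0.0267), Ap2s1 (-0.31, 0.0438) and Acat3 (-0.73, 0.0226) passed after KA.

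The difference between the genotypes itself differed between KA and saline for 37 genes (0.186%), 7 of them among the 16. That test contains the saline difference by which the 16 were chosen, so the count of 7 is a description. None of these 7 is Ercc2, Pglyrp1, Ap2s1, Pnmal2 or Kptn, for which the test of that difference gave adjusted p of 0.294 to 0.952. In aged mice the same sign was seen for 14 of the 16 both in fosB-null with epilepsy and without it, beside 54.7% and 57.0% of all genes. Without epilepsy 47 genes passed (0.236%), 4 of them within 10 Mb of Fosb, Ercc2 included. With epilepsy none of 19938 passed in limma, at 728 genes with an unadjusted p under 0.05 (3.65%).

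**Figure D4:**
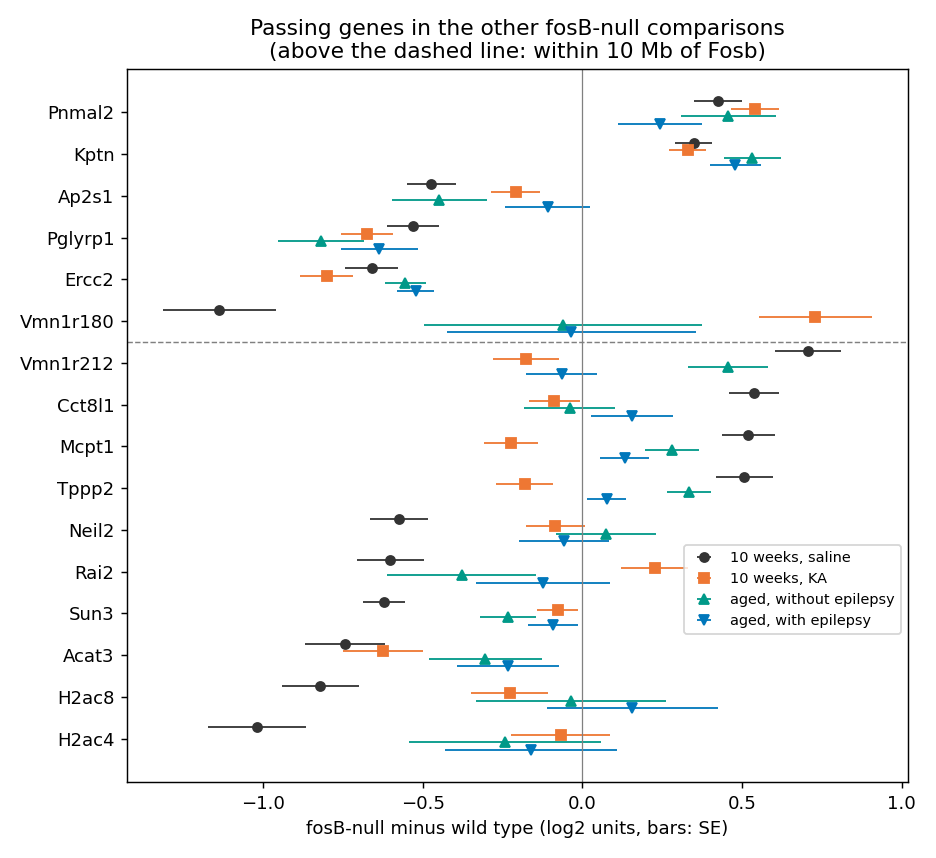
For each of the 16 genes the fosB-null minus wild type difference is drawn in log2 units with its SE in mice of 10 weeks after saline (black) and KA (orange) and in aged mice without (green) and with epilepsy (blue); the 6 genes above the dashed line lie within 10 Mb of Fosb. Ercc2, Pglyrp1, Ap2s1, Pnmal2 and Kptn keep their side of 0 in all 4 comparisons, while Vmn1r180, Rai2, Mcpt1, Tppp2, Vmn1r212 and Cct8l1 cross it after KA. The values drawn are without the array set as a block. With it, Vmn1r212 and Cct8l1 were at 0.05 and 0.05 after KA, on their saline side of 0.

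Promoters of passing genes were read for elements that FosB and its relatives are known to bind. Windows of 300 bases, 250 before to 50 after the start, were taken from RefSeq on GRCm38.p6 and found for 13 of the 16 genes. The AP-1 element was searched as TGANTCA and the cyclic AMP response element, to which Fos and Jun proteins bind with CREB relatives, as TGACGTCA, both on both strands; a match of one cannot start at the same base as a match of the other. Ercc2 is shown as the gene that recurred most, Kptn and Vmn1r180 as the passing genes with a match, in capitals.
Ercc2: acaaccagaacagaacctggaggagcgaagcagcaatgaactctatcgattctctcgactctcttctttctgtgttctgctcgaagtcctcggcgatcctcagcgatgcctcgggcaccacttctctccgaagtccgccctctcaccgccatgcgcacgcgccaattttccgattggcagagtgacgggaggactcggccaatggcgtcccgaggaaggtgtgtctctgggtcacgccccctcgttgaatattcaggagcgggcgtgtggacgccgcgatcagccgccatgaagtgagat
Kptn: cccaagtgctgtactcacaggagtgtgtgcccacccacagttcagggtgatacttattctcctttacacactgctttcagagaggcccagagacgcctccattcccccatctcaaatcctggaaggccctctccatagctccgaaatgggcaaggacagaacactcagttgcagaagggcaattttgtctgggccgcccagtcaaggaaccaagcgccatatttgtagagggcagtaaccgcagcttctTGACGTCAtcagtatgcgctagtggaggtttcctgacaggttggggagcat
Vmn1r180: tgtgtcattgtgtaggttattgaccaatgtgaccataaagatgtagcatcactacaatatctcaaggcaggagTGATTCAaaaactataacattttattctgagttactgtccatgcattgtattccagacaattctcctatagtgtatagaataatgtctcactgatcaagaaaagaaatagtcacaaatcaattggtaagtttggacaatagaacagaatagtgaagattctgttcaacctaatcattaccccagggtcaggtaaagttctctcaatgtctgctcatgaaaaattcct
The window of Ercc2 is at chr7:19381767-19382066 (+ strand), that of Kptn at chr7:16119626-16119925 (+) and that of Vmn1r180 at chr7:23952137-23952436 (+). In Kptn the cyclic AMP response element begins 1 base before the start, and in Vmn1r180 an AP-1 element begins 177 bases before it.

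Over all 27025 genes of the promoter table, 8.97% held the AP-1 element in a window and 2.03% the cyclic AMP response element. Among genes passing with the array set as a block, 9 of 110 higher genes with a promoter (8.18%) and 16 of 140 lower ones (11.4%) held the AP-1 element. The cyclic AMP response element was in 5 of 110 higher (4.55%) and 1 of 140 lower genes (0.714%). A match is a description of these letters, and no match draws nothing about binding elsewhere.

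Gene lists of pathways and cell types gave no call: in all 34 lists no member passed without the block. With the array set as a block at most 2 members of a list passed (2 of 24 neurogenesis genes), beside 1.6% of all genes. Those single members are given as values and say nothing about their lists. In the Fos and Jun family, the partners and relatives with which FosB shares its sites, none of 7 measured members passed and none had an unadjusted p under 0.05. Fosl2 was at 9.93, 9.94 and 10.09 against 10.01, 10.33 and 10.26 (0.21, adjusted p = 0.605). Among 11 ATF and CREB partners, Batf, a zipper protein that pairs with Jun, passed with the block (7.54, 7.23 and 7.39 against 7.65, 7.81 and 7.88; 0.39, adjusted p = 0.0442). Of 21 genes reported as FosB targets none passed in either fit, and the median difference was 0.02. Calb1, a calcium buffer of granule cells that is repressed by deltaFosB in other work, was higher by 0.32 (11.62, 11.41 and 11.44 against 11.79, 11.91 and 11.74; adjusted p = 0.313).

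Immediate early genes were mostly positive, late activity genes were nearly evenly split, and none of either passed without the block. Of 31 immediate early genes 25 had a positive difference, with a median of 0.08 against -0.0012 over all genes. Npas4, a transcription factor that neurons switch on with calcium entry, was at 9.0, 9.02 and 9.01 in wild type and at 9.45, 9.63 and 9.45 in fosB-null (0.50, SE 0.11, adjusted p = 0.133; 0.0119 with the array set as a block), and 0.41 after KA (adjusted p = 0.0974). Of 27 late activity genes 14 were positive, with a median of 0.00. Vgf, a secreted peptide precursor, passed with the block (10.04, 9.87 and 9.82 against 9.77, 9.63 and 9.63; -0.23, adjusted p = 0.0459) and passed after KA (-0.55, adjusted p = 0.0049). Bdnf, the neurotrophin, was at 8.34, 8.34 and 8.33 against 8.63, 8.52 and 8.45 (0.20, adjusted p = 0.448), with -0.27 after KA.

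In the dentate gyrus list, 12 of 16 genes had a positive difference, with a median of 0.13 and 5 members higher at an unadjusted p under 0.05, beside 4.32% of all genes. Prox1 was at 11.05, 11.00 and 11.05 in wild type and at 11.29, 11.44 and 11.23 in fosB-null (0.29, SE 0.06, adjusted p = 0.110; 0.0279 with the array set as a block), and differed by 0.27 after KA (adjusted p = 0.0593) and by 0.15 and 0.28 in aged mice. Dsp, the desmosome protein of mature granule cells, was at 9.45, 9.55 and 9.59 against 9.79, 9.98 and 9.91 (0.36, adjusted p = 0.472), and passed after KA (0.81, adjusted p = 0.0155). Of 24 genes of neurogenesis 16 were negative, with a median of -0.07. Dcx, the doublecortin of migrating neurons, was at 9.56, 9.80 and 9.74 against 9.58, 9.40 and 9.43 (-0.23, adjusted p = 0.456), so its groups overlap. Draxin, an axon guidance protein, passed with the block (0.24, adjusted p = 0.0371). None of 19 cell cycle genes passed in either fit.

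For channels and receptors no member passed in either fit: none of 47 potassium and HCN channels, 26 sodium and calcium channels, 23 glutamate receptors, 19 genes of the GABA system and 17 monoamine receptors. Interneuron genes were negative in 16 of 22 cases (median -0.08); Vip, the peptide of one interneuron class, was at 9.01, 9.06 and 8.95 against 8.82, 8.68 and 8.76 (-0.26, adjusted p = 0.409). Cartpt, a neuropeptide, was at 8.08, 7.79 and 7.85 against 8.26, 8.20 and 8.24 (0.32, adjusted p = 0.191).

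With the array set as a block, 1 of 15 genes of the glucocorticoid list and 1 of 18 clock genes passed as lower in fosB-null, beside 0.883% of all genes. Of the glucocorticoid list 8 genes had a positive and 7 a negative difference, with a median of 0.01. Tsc22d3, the glucocorticoid-induced leucine zipper, was at 9.58, 9.52 and 9.54 in wild type and at 9.22, 8.90 and 9.06 in fosB-null (-0.49, SE 0.13, adjusted p = 0.266; 0.0279 with the array set as a block), against 0.47 after KA (adjusted p = 0.11). Of 18 clock genes 5 were lower at an unadjusted p under 0.05, beside 4.46% of all genes. Bhlhe41, a repressor of the clock, passed with the block (9.67, 10.04 and 9.88 against 9.32, 9.64 and 9.50; -0.38, adjusted p = 0.0172). Dbp and Ciart, which follow the time of day, depended on arrays: Dbp was at 10.25, 11.06 and 11.02 against 10.23, 10.24 and 10.28, so wild type replicate 1 read like the fosB-null arrays (-0.53, adjusted p = 0.313), and Ciart did likewise (9.82, 10.74 and 10.56 against 9.66, 9.78 and 9.78). No source used here states the hour of killing.

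Enzymes of cholesterol synthesis were lower in 16 of 17 cases with a median of -0.17, with -0.24 in the second array set against 0.02 in the first, and no member passed in either fit. Insig1, which holds the pathway back when sterols are ample, was at 10.78, 11.17 and 11.05 against 10.77, 10.53 and 10.71 (-0.33, adjusted p = 0.417). Choroid plexus genes were positive in 16 of 16 cases, with a median of 0.52, and none passed in either fit or at an unadjusted p under 0.05. Within the first array set their median was -0.36 and within the second 1.01, as 1 wild type and 2 fosB-null arrays carried them. No member of the lists of astrocytes, reactive astrocytes, microglia, cytokines, interferon response, myelin, endothelium, blood or matrix passed in either fit.

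**Figure D5:**
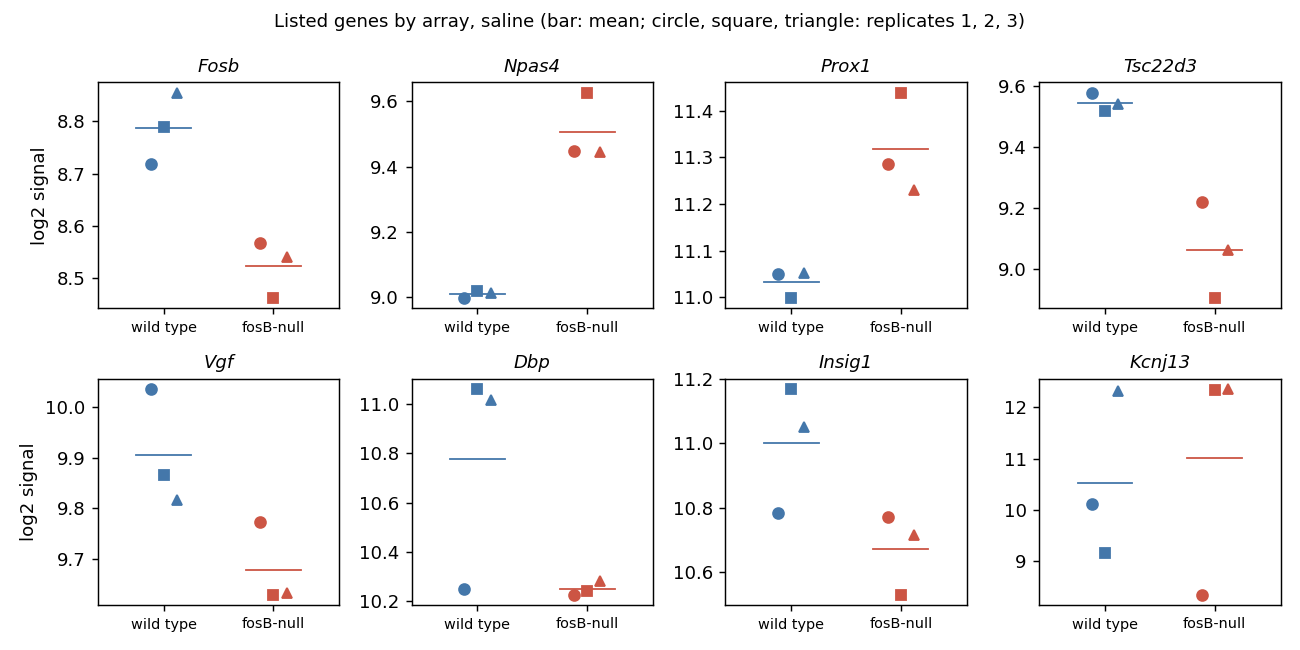
Each panel gives the log2 signal of 1 gene in the 3 wild type (blue) and 3 fosB-null arrays (red), with the mean as a bar and the replicate number as the marker shape. In Fosb, Npas4, Prox1, Tsc22d3, Vgf and Insig1 the arrays of the genotypes do not overlap, as in 13.4% of all genes. None of the genes drawn passed without the array set as a block. In Dbp wild type replicate 1 lies with the fosB-null arrays, and in Kcnj13 1 wild type and 2 fosB-null arrays are high.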

How the data were processed

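Affymetrix Mouse Gene 1.0 ST arrays (28) were loaded with target made from 100 ng of RNA, per the labels' protocols. The authors deposited a log2 signal for each of 35557 probe sets on each array. Affymetrix Expression Console is named in the submitters' processing notes; its version and normalization are not given in the sources used here. Probe sets with 1 gene symbol were kept (21789), and the brightest stood for a gene with several, leaving 19938 genes; symbols were checked by Entrez identifier against RefSeq (21698 matched, 0 changed).

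The 18 arrays of 10 weeks were quantile-normalized and fitted in limma 3.58.1 (R 4.3.3) with 1 mean per group; genotype and KA contrasts come from this fit. The 10 aged arrays were treated likewise on their own. Adjusted p values are Benjamini-Hochberg values from limma over all genes, and a gene passed under 0.05. A second fit added the array set, known from earlier results of these data: replicate 1 of each group, replicates 2 and 3 of the saline groups and wild type KA, and replicates 2 and 3 of the mutant KA groups. Replicates are labelled biological and their litters and days are not stated, so p values measure only the spread between these samples.

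The comparison, lists and naming rule were chosen with earlier results of these data known. The rule took Fosb, per direction up to 12 passing genes by size (filled by the second fit), leaving out predicted loci, small RNAs, receptors of smell and immunoglobulin segments, then passing or leading members of each list and genes within 2 Mb of Fosb. Vmn1r180, Vmn1r212, Calm3, Zfp180 and Zfp109 were named after their values were seen. On simulated data for this comparison (19938 genes), differences of 0.5 and 1 were recovered in 47% and 95% of 100 changed genes each. With the set block it was 79% and 99%. False calls were 0 without the block and 3 with it. The share of false calls among the passing genes of the arrays themselves was not tested.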

Additional observations from a re-analysis of the deposited data

Results flagged for a closer look

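For 10 of the named genes the genotype difference after KA differed from that after saline by the test of the difference itself (limma interaction contrast, adjusted p under 0.05; 37 of all genes passed it). The value is fosB-null minus wild type after KA minus the same after saline, in log2 units. Genes higher in fosB-null after saline had negative values: Orm3 -1.06 (adjusted p = 0.0167), Vmn1r212 -0.88 (0.0281), Mcpt1 -0.74 (0.0274), Svs6 -0.69 (0.0363), Tppp2 -0.69 (0.0366) and Cct8l1 -0.63 (0.0366). Genes lower in fosB-null after saline had positive values: Vmn1r180 1.87 (adjusted p = 0.0065), S100a5 0.96 (0.0480), Rai2 0.83 (0.0366) and Sun3 0.54 (0.0317). All 10 were chosen for passing after saline, without or with the array set as a block, so a smaller difference in other arrays is a description. The KA arrays of both genotypes are unbalanced over the array sets; with the set as a block, 32 of the 37 genes passed.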

How the results depend on the processing

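The direction of the 16 passing genes, of Fosb and of the other genes named by rule for passing with the array set as a block was the same under all alternatives run for them; other genes named in the text were not rerun. Meanwhile the count of passing genes moved. Against 16 for the main comparison it was 1 with the values as deposited, 6 with arrays centred on the median, 5 without the dimmest 30 percent, 4 in a fit of the 9 saline arrays and 0 in limma on the 6 arrays alone (1632 genes at an unadjusted p under 0.05), where fewer arrays give the spread. A replicate block gave 111 genes, and the count was 319 with the array set as a block, 153 with deposited values and the set block, 1366 with replicates 2 and 3 only and 1363 with array weights; in these last 2 fits all 16 passed. Leaving out 1 array gave 1 to 21, and leaving out both arrays with raised Xist, an alternative added after seeing the data, gave 7. The second of these is fosB d/d saline replicate 3 (Xist at 7.42), which the fosB d/d values given here include. Same-numbered arrays deviated together at 0.35, 0.05 and 0.45, and arrays of different number at -0.46 to 0.29. These few values cannot tell whether the numbers pair the arrays. With the set as a block, the count of 319 became 153 with deposited values, 16 without the block, 87 with the 9 saline arrays, 112 without dim genes and 51 to 506 with 1 array left out. The 37 genes whose genotype difference differed between KA and saline became 8 with deposited values, 243 with the set block and 488 with the replicate block. Near Fosb the 6 became 2 within 2 Mb, 18 with the set block, 1 with deposited values and 0 to 5 with 1 array left out. For single named genes, 343 values stayed on their side of the threshold, 47 passed where they had not and 159 no longer passed. All 159 belong to the 16 passing genes. Each of these still passed in 7 (Mcpt1, of 20 alternatives) to 16 (Ercc2, of 21). The causes were not tested. A simulated difference of 0.5 was recovered in 47% of genes without the block.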
